A study of Homo sapiens with 6 samples.

Results

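The BCL2 family of apoptosis regulators was examined in bulk RNA-seq of HTori-3.1 cells, a human thyroid cell line described by the study as normal. Its 10 members were taken by gene symbol from the deposited table of counts: MCL1, BCL2L1, BCL2, BAX, BAK1, PMAIP1, BBC3, BCL2L11, BID and BAD. They are 10 of the 22354 loci in that table. There were 3 control libraries, with wild type as their genotype label, and 3 libraries labelled BMAL1 knockout. Both groups received etoposide, which inhibits topoisomerase II and damages DNA, at 2 µM. The treatment label gives 12 h of exposure, and the protocol and methods give 24 h. The knockout was made with a lentivirus carrying Cas9 and an sgRNA, followed by puromycin and selection of single clones, so differences between clones cannot be told apart from those of the knockout. All libraries were treated, and no effect of etoposide itself can be read from them. The labels do not say that replicates were separate cultures, so p-values measure only the spread between these samples, which may be technical.

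BCL2 proteins decide whether the outer mitochondrial membrane stays intact. The anti-apoptotic members bind and restrain their relatives, the effectors BAX and BAK1 form pores through which cytochrome c escapes, and the BH3-only proteins sense damage and either block the anti-apoptotic members or activate the effectors. After DNA damage p53 induces several of these genes, among them BBC3, PMAIP1 and BAX.

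Total counts were 26893063, 27029060 and 28513703 in the control libraries and 43148059, 29860233 and 43563391 in those labelled BMAL1 knockout. Knockout replicate 1 stood apart from its group. Over genes, its counts differed from those of knockout replicates 2 and 3 by 31 and 45 times the variance of counting, against 7.43 between those other libraries and 5.41 to 14.5 between control libraries. The libraries also differed in their trend with GC content. The mean deviation of genes above the upper quartile of exon GC minus that of genes below the lower quartile (log2 CPM) was -0.26 in knockout replicate 1 and -0.21 in control replicate 3. It lay between 0.09 and 0.14 in the other libraries. The members' log2 fold changes are plotted with and without knockout replicate 1, and values without it are given beside further results.

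The targeted gene was read first. BMAL1, the partner of CLOCK in the circadian activator, had 304, 326 and 409 counts in control and 764, 603 and 860 under the knockout label, or 11.3, 12.2 and 14.6 CPM against 17.9, 19.8 and 19.4 CPM. The transcript was higher in all 3 libraries labelled BMAL1 knockout, against the label (log2 fold change 0.58, standard error 0.11, adjusted p = 0.0237 from edgeR). With single libraries left out, its adjusted p lay between 0.0153 and 0.129 and passed without control replicate 3 and without knockout replicate 1. Transcript counts do not measure the protein or an edit of the gene. The protocol names a western blot of the knockout cells, which is not used here. Directions below are given as knockout-labelled over control, and "under knockout" stands for the libraries so labelled.

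The thyroid label was checked against marker genes. PAX8, a transcription factor of follicular cells, stood at 124, 125 and 151 CPM in control and 92.5, 106 and 130.2 CPM under knockout, with overlapping groups (log2 fold change -0.28, adjusted p = 0.263 from edgeR). FOXE1, another, lay between 47.5 and 48.8 CPM in control and was lower in all 3 knockout libraries, at 36.2, 42.1 and 41.6 CPM (log2 fold change -0.26, adjusted p = 0.141 from edgeR). TG, TSHR, SLC5A5 and NKX2-1 did not pass the filter on low counts: the first 3 reached at most 0.485 CPM in any library, and NKX2-1 had 0 counts. Of the epithelial keratins, KRT8 (1148 to 1444 CPM) and KRT7 (674 to 796 CPM) were abundant, KRT19 lay between 7.21 and 10.1 CPM, and KRT18 fell from 842, 860.5 and 853 CPM to 651, 564 and 591 CPM (log2 fold change -0.50, adjusted p = 0.00588 from edgeR, and 0.0561 without control replicate 2). EPCAM and CDH1 reached at most 0.524 and 0.328 CPM. Of the mesenchymal markers VIM (1509 to 1852 CPM) and COL1A1 (699 to 965 CPM) were abundant, and PDGFRB lay between 18.2 and 23.4 CPM. The other collagen markers, COL1A2 and COL3A1, had at most 2 and 1 counts in any library, and DCN and LUM had 0 counts. KRT8 and VIM were lower in all 3 knockout libraries, with log2 fold changes of -0.28 and -0.24 (adjusted p = 0.0517 and 0.0857 from edgeR). KRT7, KRT19 and EPCAM went the other way, at 0.10, 0.23 and 1.55, with overlapping groups (adjusted p = 0.535, 0.406 and 0.378 from edgeR). PDGFRB and COL1A1 stood at 0.14 and -0.00109, also with overlapping groups. DESeq2, edgeR without knockout replicate 1 and edgeR with the GC trend removed each called 2 epithelial markers and 1 mesenchymal marker, all lower, where edgeR with all 6 libraries called 1 and 0. These fits tested 4, 5 and 5 epithelial markers and 3 mesenchymal markers each. Over all loci they called 4.48%, 4.54% and 7.45%, against 2.37% in edgeR with all 6 libraries. Of the 6 blood and endothelial markers 3 were tested. PTPRC, the most abundant, fell from 6.41, 6.24 and 6.53 CPM to 2.51, 1.97 and 2.60 CPM (log2 fold change -1.42, adjusted p = 0.00107 from edgeR), VWF and PECAM1 reached at most 1.38 and 0.286 CPM, CD14 went the other way from 0.261, 0.337 and 0.643 CPM to 0.375, 1.05 and 1.08 CPM with overlapping groups (log2 fold change 0.97, adjusted p = 0.343 from edgeR), CD3E had 0 counts, and the list summed to 8.20, 7.85 and 8.71 CPM in control and 3.87, 3.80 and 5.01 CPM under knockout. The part of these shifts in the results was not tested. Of the thyroid markers given here, PAX8 and FOXE1 were detected above the filter.

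All 10 members passed the filter on low counts and had reads in every library, from 113 counts (BBC3) to 13426 counts (MCL1). None had an adjusted p under 0.05 in edgeR, where 2.37% of the 14860 loci tested did (150 higher, 202 lower). DESeq2 also gave 0 of 10, against 4.48% of its 14160 loci. At an unadjusted p under 0.05 there was 1 of 10 in edgeR, PMAIP1, which was lower, against 16.9% of loci in either direction and 7.76% lower. DESeq2 gave 1 of 10 as well, with 1178 loci higher and 1167 lower of its 14160. The edgeR count was 3 of 10 (2 higher) without knockout replicate 1, against 1515 loci higher and 1436 lower of 15045, and 4 of 10 (1 higher) with the GC trend removed, against 1655 and 1598 of 13578. It was 2 of 10 without control replicate 2, against 1023 and 794 of 15131, and 0 of 10 without control replicate 3, against 1340 and 1269 of 15130. Without knockout replicate 3 the count was 1 of 10, and that member was higher, against 1344 and 1208 of 15012. With depths thinned to the smallest total it was 2 of 10 (1 higher), against 1342 and 1141 of 14752. Control and knockout values were fully apart in 2 of 10 members, MCL1 and BCL2L1, both lower. Over all loci tested 23.3% were apart in this way, and 11.5% with the lower values under knockout. The median log2 fold change of the members was -0.02 against 0.01 over all loci, and the median size of the change 0.133 against 0.125. Fewer cells of a kind and less RNA per cell cannot be told apart in these bulk libraries.

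**Figure D1:**
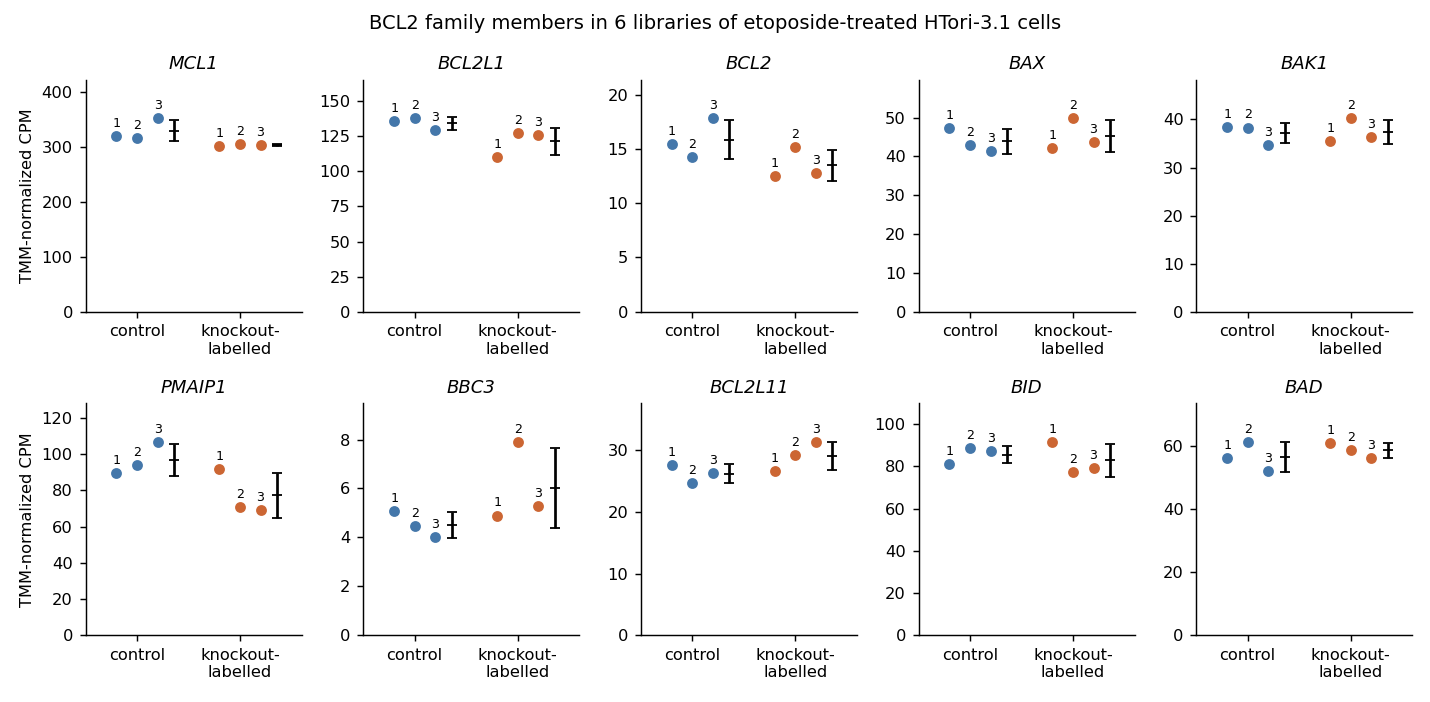
TMM-normalized CPM of each member in the 3 control libraries (blue) and the 3 libraries labelled BMAL1 knockout (orange), with replicate numbers above the points and mean ± SD (n = 3) in black; each axis starts at 0. MCL1 and BCL2L1 are the members whose groups do not overlap, and knockout replicate 1 of PMAIP1 sits at 91.7 CPM, among the controls.

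Among the anti-apoptotic members, MCL1 (ENSG00000143384.14, chr1:150560895-150579738, reverse strand of hg38) encodes a short-lived protein that holds BAK1 and is neutralized by the product of PMAIP1. It was measured at 321, 316 and 352 CPM in the control libraries and at 302, 306 and 303 CPM under knockout. The 3 knockout values lay close together and below all controls, of which control replicate 3 was highest (exact 2-sided permutation test, p = 0.1, the smallest that 3 against 3 allows). In edgeR the difference was -0.12 on the log2 scale (95% interval -0.28 to 0.04, adjusted p = 0.441), and -0.07 without control replicate 3.

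BCL2L1 (ENSG00000171552.14, chr20:31664452-31723989, reverse strand) gives the long protein BCL-xL, which protects cells, and a short form that promotes death; counts per gene do not separate the forms. Its values were 136, 138 and 129 CPM in control and 110.4, 128 and 126 CPM under knockout. All 3 knockout libraries lay below all controls, knockout replicate 1 lowest and the others just under control replicate 3. Its log2 fold change was -0.15 (95% interval -0.32 to 0.03, adjusted p = 0.383 from edgeR), and -0.08 without knockout replicate 1. The lncRNA ABALON covers 41.3% of its exon bases on the opposite strand, so the value is uncertain.

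BCL2 (ENSG00000171791.14, chr18:63123346-63320128, reverse strand), the founding member, stood at 15.5, 14.3 and 17.8 CPM in control and 12.5, 15.2 and 12.8 CPM under knockout. Knockout replicate 2 lay between control replicates 1 and 2, so the groups overlap. BCL2 had a log2 fold change of -0.24 (95% interval -0.50 to 0.02, adjusted p = 0.338 from edgeR), which was -0.14 without control replicate 3. The log2 fold changes of MCL1, BCL2L1 and BCL2 were negative in each of the 15 alternative fits, none of which gave an adjusted p under 0.05 for them.

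The effectors BAX (ENSG00000087088.21, chr19:48954815-48961798, forward strand) and BAK1 (ENSG00000030110.14, chr6:33572547-33580293, reverse strand) are the pore-forming members. The stretch before the RefSeq start of BAX is shown because it holds the E-box CACGTG, the motif bound by BMAL1 with CLOCK, in 4 copies (capitals). The motif reads the same on both strands. The 250 bases run from chr19:48954625-48954874 (GRCh38.p14, RefSeq), 5′ to 3′ on the forward strand.

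BAX upstream: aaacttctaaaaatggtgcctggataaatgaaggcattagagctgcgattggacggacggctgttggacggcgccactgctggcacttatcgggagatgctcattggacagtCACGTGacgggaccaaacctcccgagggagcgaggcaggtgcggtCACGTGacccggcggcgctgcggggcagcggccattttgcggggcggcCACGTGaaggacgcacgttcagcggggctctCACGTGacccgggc

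The first bases of the motifs lie 138, 93, 45 and 14 bases before the RefSeq start, which follows the window. The GENCODE coordinates given above begin inside the window, so that the last pair of motifs lies within them. CACGTG occurs in 6.34% of the 35116 RefSeq promoters over the same 250 bases, and 4 or more copies in 5 of them. RefSeq gave 15 promoters for 9 of the members, MCL1 having no entry. Besides BAX, a copy occurs in BBC3 and in 2 overlapping promoters of BID, which hold the same site. A match describes letters and shows no binding. The windows of 30 bases around these sites are chr19:47232882-47232911 for BBC3 and chr22:17774072-17774101 for BID, both on the reverse strand.

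BBC3 site: atggggagatttCACGTGagatatagatta

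BID site: ttgtgtcctctcCACGTGgcctggggattc

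BAX was measured at 47.4, 42.9 and 41.3 CPM in control and 42.1, 49.8 and 43.7 CPM under knockout. Its highest value was that of knockout replicate 2, and the groups overlap widely. BAX had a log2 fold change of 0.04 with a 95% interval from -0.16 to 0.25 (adjusted p = 0.866 from edgeR). The interval spans changes from -10.7% to 18.6%.

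BAK1, which sits in the mitochondrial membrane and is held there by MCL1, stood at 38.4, 38.3 and 34.7 CPM in control and 35.5, 40.2 and 36.3 CPM under knockout. The ranges overlap for most of their width. BAK1 had a log2 fold change of 0.01 (95% interval -0.19 to 0.20, adjusted p = 0.984 from edgeR), or between -12.3% and 14.8% as a change. Both effectors changed sign when knockout replicate 2 was left out, to -0.03 for BAX and -0.05 for BAK1, and BAK1 also without control replicate 3, to -0.04.

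Of the BH3-only members, PMAIP1 (ENSG00000141682.12, chr18:59899996-59904305, forward strand) had the smallest p-value of the 10 members. It encodes NOXA, a p53 target that neutralizes MCL1. The 250 bases before its start (chr18:59899746-59899995, GRCh38.p14, RefSeq, forward strand) are given beside those of BAX for comparison and hold no CACGTG.

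PMAIP1 upstream: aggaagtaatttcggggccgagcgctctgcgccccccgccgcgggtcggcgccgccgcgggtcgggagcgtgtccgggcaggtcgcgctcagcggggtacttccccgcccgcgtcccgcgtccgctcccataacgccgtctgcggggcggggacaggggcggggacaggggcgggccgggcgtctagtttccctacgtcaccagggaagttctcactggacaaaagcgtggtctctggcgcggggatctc

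PMAIP1 was measured at 89.8, 94.0 and 107 CPM in control and at 91.7, 71.0 and 69.3 CPM under knockout. Knockout replicates 2 and 3 lay below every control, and knockout replicate 1 lay between control replicates 1 and 2. Over all 6 libraries it differed by -0.32 on the log2 scale (95% interval -0.57 to -0.08, unadjusted p = 0.0144, adjusted p = 0.167 from edgeR), and the exact 2-sided permutation test gave p = 0.2. DESeq2 gave an adjusted p of 0.106.

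Without knockout replicate 1, PMAIP1 fell by 0.47 on the log2 scale (95% interval -0.65 to -0.29, adjusted p = 0.0110 from edgeR), as 1 of 10 members called against 4.54% of 15045 loci. With each library's trend with GC content removed and all 6 libraries kept, it fell by 0.37 (95% interval -0.52 to -0.22, adjusted p = 0.0129 from edgeR), again as 1 of 10 against 7.45% of 13578 loci. Over its 15 alternatives the adjusted p ranged from 0.0110 to 0.400, and it was under 0.05 in these 2. The exons of PMAIP1 have a GC content of 40.0%, below the lower quartile of loci (41.9%). The libraries with the highest PMAIP1 of their groups, control replicate 3 and knockout replicate 1, are also those in which genes of low GC content were higher, by 0.06 and 0.15 log2 CPM on average. Leaving out control replicate 3 instead gave PMAIP1 a log2 fold change of -0.24, with an adjusted p not under 0.05. This was its smallest fall with single libraries left out, and that without knockout replicate 1 was its largest.

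**Figure D2:**
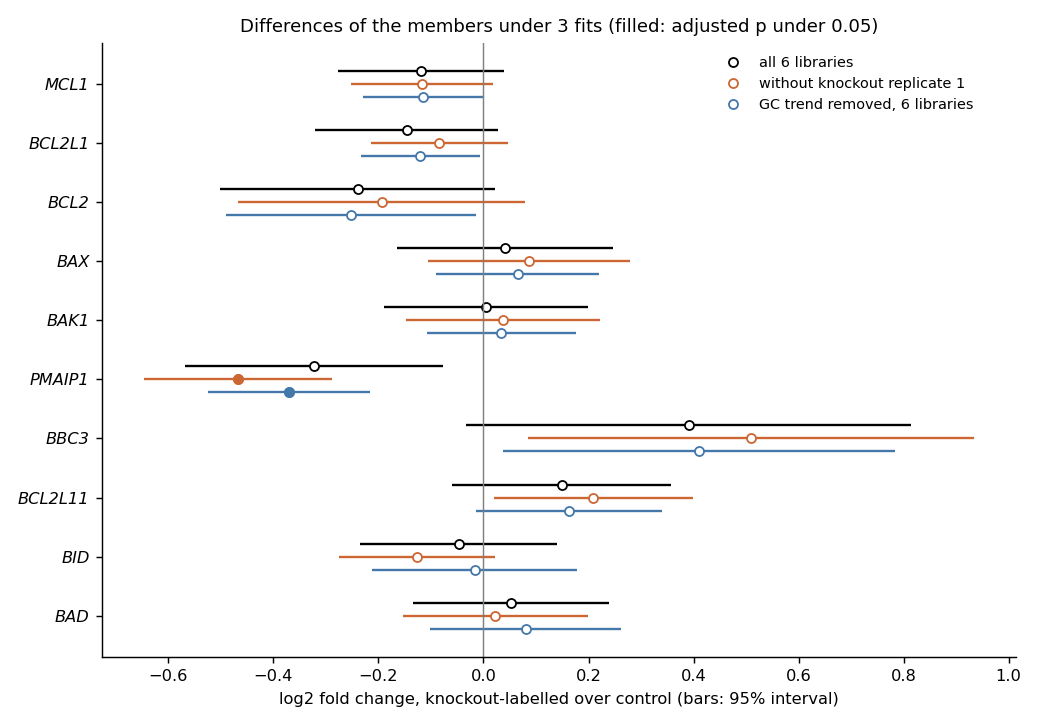
Log2 fold change of each member, libraries labelled BMAL1 knockout over control, with its 95% interval (bars), from all 6 libraries (black), without knockout replicate 1 (orange) and with the GC trend removed (blue); filled points have an adjusted p under 0.05. PMAIP1 lies at -0.32, -0.47 and -0.37, and is the member with filled points.

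Over the 6 libraries, the genes whose log2 CPM was most correlated with that of PMAIP1 were RSU1 (Pearson r = 0.992), ZNF33B (r = 0.991) and WDR3 (r = 0.986). This is a description over libraries that differ in their GC trends. RSU1 ran from 73.8 to 78.9 CPM in control and stood at 75.4, 66.3 and 66.9 CPM under knockout. As in PMAIP1, knockout replicate 1 lay among the controls, a likeness that follows from the choice by correlation.

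BBC3 (ENSG00000105327.18, chr19:47220822-47232766, reverse strand) encodes PUMA, a p53 target that binds all anti-apoptotic members. It was the member with the fewest reads, at 5.07, 4.45 and 4.04 CPM in control and 4.90, 7.89 and 5.28 CPM under knockout. Knockout replicate 2 stood above the rest, and knockout replicate 1 lay within the controls. The log2 fold change of 0.39 had a wide interval, from -0.03 to 0.82 (adjusted p = 0.333 from edgeR), and it was 0.17 without knockout replicate 2.

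BCL2L11 (ENSG00000153094.25, chr2:111119378-111168444, forward strand) encodes BIM, which FOXO3 can induce. Its values were 27.7, 24.6 and 26.4 CPM in control and 26.7, 29.3 and 31.3 CPM under knockout. Knockout replicates 2 and 3 exceeded all controls and knockout replicate 1 did not. Its log2 fold change was 0.15 (95% interval -0.06 to 0.36, adjusted p = 0.465 from edgeR), and 0.09 without knockout replicate 3. MIR4435-2HG shares 10.8% of its exon bases on the opposite strand.

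BID (ENSG00000015475.19, chr22:17734138-17774770, reverse strand), which caspase-8 cleaves to link death receptors to mitochondria, ranged from 80.9 to 88.6 CPM in control and from 77.4 to 91.4 CPM under knockout. BAD (ENSG00000002330.14, chr11:64269830-64284704, reverse strand), which growth factor signalling holds inactive by phosphorylation, ranged from 52.0 to 61.1 CPM and from 56.0 to 60.7 CPM. The groups overlap in both. Log2 fold changes were -0.05 for BID (95% interval -0.23 to 0.14) and 0.05 for BAD (95% interval -0.13 to 0.24). With single libraries left out, that of BID ran from -0.13 (without knockout replicate 1) to -0.00223 (without knockout replicate 2). Without control replicate 3 that of BAD was -0.000934. GPR137 shares 23.7% of the exon bases of BAD on the opposite strand.

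BCL2 and PMAIP1 lie 3.22 Mb apart on chromosome 18, and most loci around them had negative log2 fold changes, against 7087 of all 14860 loci tested. Of the 40 tested loci nearest to BCL2, 20 on each side, 34 had a negative log2 fold change, and the median was -0.12. At an adjusted p under 0.05, 5 of these loci were lower and 1 was higher, against 202 and 150 of all 14860 loci. Around PMAIP1 the log2 fold change was negative in 32 of 40, with a median of -0.11, and 4 loci passed as lower and 1 as higher, beside the same share over all loci (2.37% in either direction). The windows share 32 loci and each contains the other member, so they are not independent. Over the 15 alternative fits the median stayed between -0.17 and -0.095 around BCL2 and between -0.15 and -0.061 around PMAIP1. Around the other 8 members the medians lay between -0.035 and 0.029 with all 6 libraries and between -0.11 and 0.064 over the 15 alternatives. Without control replicate 3, the medians around BAX (-0.11), BAD (-0.096) and BBC3 (-0.095) were below that around PMAIP1 (-0.061), and that of BAX also below that of BCL2 (-0.10). Without knockout replicate 3, BAD (-0.072) was below PMAIP1 (-0.067). The part of this region in the values of BCL2 and PMAIP1 was not tested.

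Levels were compared between members as CPM per kilobase of merged exons. MCL1 led in control with 51.5, 50.8 and 56.6, followed by PMAIP1 at 44.3 ± 4.0 (mean ± SD, n = 3), BAD at 33.0 ± 2.69 and BCL2L1 at 32.0 ± 1.05. BID, BAX and BAK1 came next at 19.3 ± 0.918, 17.0 ± 1.22 and 16.8 ± 0.944. BCL2L11 at 3.89 ± 0.227, BBC3 at 1.42 ± 0.163 and BCL2 at 1.26 ± 0.143 closed the order. In control, values of members next to each other in this order overlapped for BAD and BCL2L1, BID and BAX, BAX and BAK1, and BBC3 and BCL2. The order of the means over all 3 libraries was the same under knockout, where PMAIP1 and BAD, BID and BAX, and BAX and BAK1 overlapped. PMAIP1 lay above BAD in knockout replicate 1 and below it in the other two (32.5 and 31.7 against 34.4 and 32.8), and BAX lay above BID in knockout replicate 2. Of the summed level of MCL1, BCL2L1 and BCL2, MCL1 made up 61.4% in control and 61.9% under knockout, and BCL2 1.46% and 1.36%. Other BCL2 family genes, BCL2L2 among them, were not in this sum.

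Ratios within a library do not depend on its scaling, but its trend with GC content was not removed from them. The exons of BCL2 have a GC content of 43.3% and those of BAX 60.7%. The part of the GC trends in these ratios was not tested. The log2 ratio of BCL2 to BAX per kilobase was -3.90, -3.87 and -3.50 in control and -4.04, -4.00 and -4.06 under knockout, where all 3 values were lower. That of MCL1 to PMAIP1, a protector and its antagonist, was 0.33, 0.24 and 0.21 in control and 0.21, 0.60 and 0.62 under knockout. Knockout replicates 2 and 3 lay above the controls and knockout replicate 1 at their lower end. The log2 ratio of MCL1 to BCL2L1 had means of 0.73 ± 0.13 and 0.76 ± 0.11 (SD, n = 3 each). Over the members alone, without other BCL2 family genes, the summed anti-apoptotic over the summed pro-apoptotic level gave -0.66 ± 0.04 and -0.71 ± 0.12 (log2, SD, n = 3 each). The first difference was smaller than either SD, and the second was smaller than the SD of the knockout libraries only. Without knockout replicate 1, the difference of the summed ratio went from -0.05 to 0.01, that of MCL1 to BCL2L1 from 0.03 to -0.03 and that of MCL1 to PMAIP1 from 0.22 to 0.35. With single libraries left out, the difference of the summed ratio ran from -0.10 (without knockout replicate 3) to 0.01, that of MCL1 to BCL2L1 from -0.03 to 0.11 (without control replicate 3), that of MCL1 to PMAIP1 from 0.14 to 0.35, and that of BCL2 to BAX from -0.345 to -0.144 (without control replicate 3).

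Further genes of the family and of the steps around it were read from 4 lists. Of 13 other BCL2 family genes 9 passed the filter on low counts. Of these, 0 had an adjusted p under 0.05 in edgeR and 0 in DESeq2, against 2.37% and 4.48% of all loci. At an unadjusted p under 0.05, 1 was higher and 1 lower in edgeR, against 16.9% of all loci in either direction. The list's median log2 fold change was 0.01, against 0.01 over all loci. The most abundant were BNIP3 and BNIP3L, which act in removal of mitochondria, and BCL2L13, with log2 fold changes of 0.03, -0.05 and 0.01, and BNIP3 was at -0.05 without knockout replicate 1. BMF, a BH3-only gene chosen after its values were seen, stood at 3.39 ± 0.468 CPM in control and 5.22 ± 1.02 CPM under knockout (mean ± SD, n = 3), all 3 knockout libraries above the controls. Its log2 fold change was 0.62 (95% interval 0.22 to 1.03, adjusted p = 0.109 from edgeR), and the adjusted p was 0.0261 without knockout replicate 1 and 0.0374 with the GC trend removed. Over its alternatives it ran from 0.0261 to 0.288. The lower gene was BCL2L2, also named after its values were seen. It stood at 42.4 ± 1.56 CPM in control and 36.35 ± 2.53 CPM under knockout (mean ± SD, n = 3), all 3 knockout libraries below the controls. Its log2 fold change was -0.22 (95% interval -0.41 to -0.03, adjusted p = 0.213 from edgeR).

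Downstream of the pores, 15 genes of the apoptosome, the caspases and mitochondrial release were tested. None had an adjusted p under 0.05 in edgeR, against 2.37% of all loci. Of the 14 that DESeq2 tested, 2 had one there, against 4.48% of its loci. At an unadjusted p under 0.05 in edgeR, 4 were higher and 1 lower, against 1353 higher and 1153 lower of all 14860 loci, and the median log2 fold change was 0.05. CYCS, the cytochrome c gene, was the most abundant at 333, 349 and 398 CPM in control and 468, 333 and 325 CPM under knockout. Knockout replicate 1 alone stood above the controls, and the log2 fold change went from 0.06 to -0.13 without it. AIFM1 and DFFA had log2 fold changes of -0.10 and 0.01.

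APAF1 and DIABLO, the genes called by DESeq2, were chosen after their values were seen. APAF1, the scaffold that cytochrome c assembles into the apoptosome, stood at 51.5, 49.0 and 51.9 CPM in control and 59.0, 66.5 and 61.3 CPM under knockout. DIABLO, which relieves the inhibition of caspases, stood at 49.5, 46.2 and 46.4 CPM and 40.1, 36.6 and 37.3 CPM. The groups do not overlap in either gene, APAF1 lying higher and DIABLO lower. Log2 fold changes were 0.29 and -0.32, with adjusted p = 0.0857 and 0.0678 in edgeR and 0.0289 and 0.0189 in DESeq2. Without knockout replicate 1 edgeR gave 0.0297 and 0.0239, and with the GC trend removed 0.0718 and 0.0244. Over 15 alternatives the adjusted p ran from 0.0289 to 0.316 and from 0.0189 to 0.252. Genes that overlap DIABLO on the same strand hold up to 31.5% of its exon bases.

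Of the 6 inhibitor of apoptosis genes 5 were tested, BIRC7 having 0 counts, and 1 passed the threshold in edgeR, against 2.37% of all loci. BIRC3, which encodes the ubiquitin ligase cIAP2, fell from 44.6 ± 0.987 CPM (mean ± SD, n = 3) to 34.0, 31.6 and 27.3 CPM. Every knockout value lay below every control, and edgeR gave a log2 fold change of -0.53 (95% interval -0.73 to -0.32, adjusted p = 0.0163). With single libraries left out its adjusted p ran from 0.00374 to 0.0820, under 0.05 without knockout replicate 1 and without knockout replicate 3. BIRC6, BIRC5 and XIAP had log2 fold changes of 0.04, -0.03 and 0.03. The list's median was -0.03.

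Of 13 regulators of the family, 1 passed the threshold in edgeR, against 2.37% of all loci. At an unadjusted p under 0.05, 4 were higher and 1 lower, against 1353 and 1153 of the 14860 loci. The median log2 fold change was 0.09. MDM2, the p53-induced ligase that degrades p53, rose from 238, 234 and 247 CPM to 342, 352 and 309.9 CPM. The groups do not overlap, and edgeR gave a log2 fold change of 0.48 (95% interval 0.32 to 0.64, adjusted p = 0.00739). Without control replicate 2 its adjusted p was 0.0705. HUWE1, which ubiquitinates MCL1, stood at 401, 394 and 389.8 CPM in control and 283, 341 and 369 CPM under knockout, lower in all 3 and lowest in knockout replicate 1 (log2 fold change -0.25, adjusted p = 0.193 from edgeR, and -0.15 without that library). VDAC2, a mitochondrial channel that binds BAK1, was higher in all 3 knockout libraries (log2 fold change 0.22, adjusted p = 0.170 from edgeR, 0.0376 with the GC trend removed and from there to 0.479 over its alternatives). USP9X, which removes ubiquitin from MCL1, had a log2 fold change of -0.04.

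**Figure D3:**
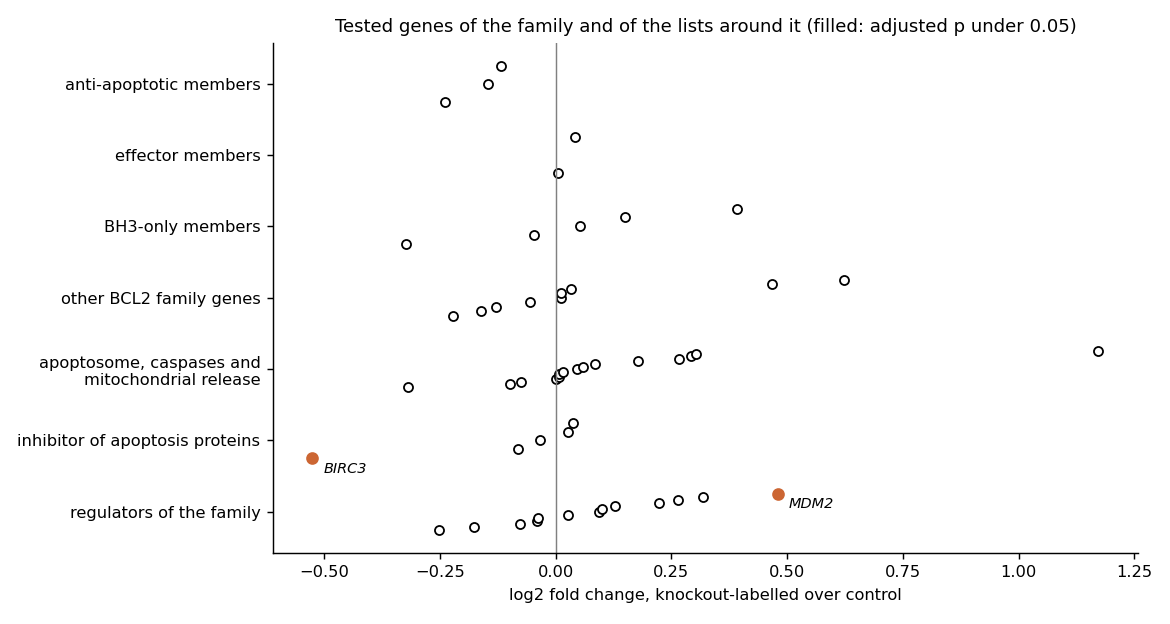
Log2 fold change (libraries labelled BMAL1 knockout over control) of each tested gene of the BCL2 family members, by role, and of the 4 lists around them; filled points have an adjusted p under 0.05. BIRC3 at -0.53 and MDM2 at 0.48 are filled, and no member is.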

How the data were processed

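Counts of uniquely mapped reads per gene, whole numbers deposited without normalization, were used as the authors made them. Their steps were adapter and quality filtering and alignment to hg38. The submitters' processing notes name fastp 0.20.1 and HISAT2 2.0.4. The annotation and the use of strand are not given in the sources used here, so counts of overlapping genes are uncertain. All 6 columns matched a sample by name.

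In R 4.3.3, edgeR 4.0.16 gave TMM-normalized CPM (read counts scaled to a common depth), log2 fold changes, 95% confidence intervals and 2-sided p-values from its quasi-likelihood test (robust fit, newer method, default filter on low counts), with Benjamini-Hochberg adjustment over all 14860 loci that passed. The threshold was an adjusted p under 0.05. Exact 2-sided permutation tests of CPM were run with scipy 1.17.1. Exon lengths, GC content, overlaps and positions came from GENCODE v44, and promoters from RefSeq (GRCh38.p14). On simulated counts with 200 changed genes, 8.21% of the genes called by edgeR and 11.9% of those called by DESeq2 were false, and with 0 changed they called 1 and 6.

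The members and lists were chosen with earlier results of these data known. Genes named are all members, BMAL1, those of the remaining lists whose adjusted p was under 0.05, up to 3 of the rest with the largest mean CPM, and the 3 genes most correlated with the member of smallest p. BIRC7 and the cell type markers outside this rule were named for their low levels or 0 counts, after these were seen, and further genes outside it are marked as such.

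Alternatives were median-of-ratios scaling, library size only, no filter, at least 10 counts in every library, DESeq2 1.42.0, a replicate block, each library left out, an offset for the GC trend of each library, thinning to the smallest total, an adjusted p under 0.1, and the study's thresholds (fold change over 2, p under 0.01, read as unadjusted). edgeR's earlier quasi-likelihood method was added after both methods had been seen. Of the planned cell type markers, 1 is not reported here.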

Additional observations from a re-analysis of the deposited data

How the results depend on the processing

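Against 150 higher and 202 lower, DESeq2 gave 256 and 378, removal of the GC trend 477 and 534, an adjusted p under 0.1 gave 363 and 388, and the study's thresholds 84 and 52. With single libraries left out they ran from 39 to 323 and from 65 to 360. edgeR's earlier quasi-likelihood method, added after seeing the data, gave 161 and 212 and again 0 members. The replicate numbers do not pair the samples: same-numbered libraries deviated from their group means with correlations of -0.09, -0.05 and -0.00471 over genes. With the replicate block the counts were 97 and 119, and 0 members passed. The number of members past the threshold was 1 with the GC trend removed and ran from 0 to 1 with single libraries left out. It was 0 in the other settings. PMAIP1 went to -0.37 with the GC trend removed. With single libraries left out it ran from -0.47 (without knockout replicate 1) to -0.24 (without control replicate 3). BAX then ran from -0.0319 to 0.0997, BAK1 from -0.0496 to 0.0375 and BAD from -0.000934 to 0.11. The same fits gave BNIP3 -0.0545 to 0.0817, BCL2L13 -0.0163 to 0.0367, BNIP3L -0.124 to 0.0246, CYCS -0.134 to 0.153, DFFA -0.0104 to 0.0183, BIRC5 -0.101 to 0.016 and XIAP -0.0283 to 0.108, and XIAP was at -0.0115 with the GC trend removed. Other BCL2 family genes past the threshold numbered 1 of 9 with the GC trend removed and 0 to 1 of 9 with libraries left out. The apoptosome list had 2 of 14 in DESeq2 and 2 of 15 with the GC trend removed. It had 1 of 15 with depths thinned to 26893063 counts and 0 to 2 of 15 with libraries left out. The inhibitor of apoptosis list ran from 0 to 1 of 5. The regulators had 2 of 13 with the GC trend removed and ran from 0 to 1 of 13 with libraries left out. Over all loci the share was 4.48% in DESeq2, 7.45% with the GC trend removed and 4.54% without knockout replicate 1. With thinned depths 156 loci were higher and 202 lower, of 14752. The cause of these shifts was not tested. The interval of BBC3, the member with the fewest reads, was the widest of the members.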
